A study of Mus musculus with 36 samples.

Results

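The genes described here encode 4 secreted ligands of the LGI family (Lgi1, Lgi2, Lgi3 and Lgi4) and 3 membrane proteins of the ADAM22 type (Adam11, Adam22 and Adam23) that bind them. They were chosen by gene symbol as a ligand and receptor family, and they are 7 of the 52636 genes in the count table. LGI proteins are built of leucine-rich repeats and a propeller domain that docks onto the extracellular part of ADAM22, ADAM23 or ADAM11, which belong to the ADAM family but lack a working protease site and act in adhesion. In peripheral nerve, LGI4 released by Schwann cells acts through ADAM22 on axons, and mice without Lgi4 (claw paw) sort and myelinate axons late. LGI1, known from an inherited epilepsy, links ADAM22 and ADAM23 across synapses and sets the number of Kv1 potassium channels on axons.

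RNA was measured in 3 kinds of cells that FACS took from skeletal muscle of S100β-GFP;NG2-dsRed mice, a double-transgenic line in which the S100b promoter drives GFP and the promoter of Cspg4, the gene of NG2, drives dsRed. Cells with both colours were the perisynaptic Schwann cells (PSCs) of the neuromuscular junction, GFP alone gave the S100β-GFP+ cells, sorted as Schwann cells outside the synapse, and dsRed alone gave the NG2-dsRed+ cells, which include pericytes. All 3 groups came from mice of this genotype, with no treatment named, at P15 to P21 by the study's methods. The labels give ranges that start at P15 and end anywhere from P21 to P46, and this conflict is not resolved here. Each library was made from diaphragm, pectoralis and limb muscles of a single mouse, and cDNA was made with SMART-Seq v4, a kit for very little RNA. The table used here holds 9 PSC, 8 S100β-GFP+ and 10 NG2-dsRed+ libraries. The study removed failed samples and kept 7 S100β-GFP+ libraries without naming them, so at least 1 of the 8 used here was not used there. Because a reporter can be on in other cells that use its promoter, the groups are defined by colour, and each library is a mixture of all cells in its gate.

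The total of counts on genes was between 5334916 and 9592875 in PSC libraries (median 7487157), between 5221655 and 9411399 in S100β-GFP+ libraries (median 7449927) and between 5712256 and 7918320 in NG2-dsRed+ libraries (median 6869645). Lars2, Gm23935 and Gm15564 together took 3.64% to 36.6% of the counts in PSCs (median 17.8%), 19.5% to 39.1% in S100β-GFP+ cells (median 32.6%) and 12.5% to 40.0% in NG2-dsRed+ cells (median 30.4%). Levels are given as CPM, counts per 1000000 after TMM normalization. S100b, the gene behind the GFP, had a median of 160 CPM in PSCs (57.0 to 566), 30.5 CPM in S100β-GFP+ cells (9.88 to 40.9) and 5.43 CPM in NG2-dsRed+ cells (1.23 to 17.8). Cspg4 had a median of 718 CPM in PSCs (503 to 965), 53.5 CPM in S100β-GFP+ cells (34.5 to 148) and 667 CPM in NG2-dsRed+ cells (487 to 890). Both reporter genes were therefore high in the double-labelled cells, and neither overlapped between PSCs and the group without its reporter.

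Markers of the Schwann lineage (Sox10, Erbb3, Foxd3, Cdh19, Ngfr and S100b) summed to between 1396 and 2034 CPM in PSCs (median 1610), to between 35.5 and 181 CPM in S100β-GFP+ cells (median 80.0) and to between 18.8 and 61.1 CPM in NG2-dsRed+ cells (median 30.7). The most abundant of them was Sox10 in PSCs, S100b in S100β-GFP+ cells and Ngfr in NG2-dsRed+ cells, and none was at 0 in any group. With PSCs above S100β-GFP+ cells, 5 of the 6 were past the threshold used here, beside 22.9% of all genes tested. Only Ngfr among them was not. The S100β-GFP+ libraries carried other markers at higher levels. Fibroblast markers (Pdgfra, Dcn, Lum and Col1a1) summed to between 9185 and 19928 CPM there (median 14410), against 417 to 1737 CPM in PSCs (median 671) and 1236 to 11958 CPM in NG2-dsRed+ cells (median 4452). Of these markers, 4 of 4 were lower in PSCs than in S100β-GFP+ cells, beside 24.1% of all genes tested. Against NG2-dsRed+ cells, 2 of the 4 were higher in S100β-GFP+ cells and 2 did not pass (median log2 fold change 0.78), and the sums overlapped. Macrophage and leukocyte markers (Ptprc, Adgre1, Csf1r and Cd68) summed to between 186 and 1277 CPM in S100β-GFP+ cells (median 845), with Ptprc as the most abundant, but to at most 11.0 CPM in PSCs and 13.1 CPM in NG2-dsRed+ cells. Set beside NG2-dsRed+ cells, 4 of the 6 Schwann lineage markers were higher in S100β-GFP+ cells and none was lower (median log2 fold change 2.17), beside 18.1% higher, 15.2% lower and a median of -0.02 over all genes tested. S100b is 1 of the 6, and its level is not independent of a sort on GFP from its promoter. Sox10 and Erbb3, which no gate used, were also higher (log2 fold changes 2.18 and 2.51, edgeR adjusted p = 3.07e-06 and 8.54e-07). The S100β-GFP+ libraries thus carried Schwann lineage markers together with fibroblast and leukocyte markers that summed higher than the lineage markers. They are called by their colour below.

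The pericyte and smooth muscle list (7 genes, led by Rgs5) summed to between 6794 and 14707 CPM in NG2-dsRed+ cells, 228 to 1504 CPM in S100β-GFP+ cells and 773 to 1393 CPM in PSCs, where its most abundant gene was Cspg4. Endothelial markers (3 genes, led by Cdh5) were highest in NG2-dsRed+ cells (median 1794 CPM), and S100β-GFP+ libraries spanned 21.8 to 1620 CPM. Neuronal markers were low, with summed medians of 6.12 CPM in PSCs, 9.29 CPM in S100β-GFP+ cells and 35.3 CPM in NG2-dsRed+ cells, mostly from Stmn2, and Chat, which marks motor neurons, had no count in PSCs or NG2-dsRed+ cells. Satellite cell markers stayed at or under 22.5 CPM in every library and muscle fibre markers had medians of 255, 198 and 281 CPM in PSCs, S100β-GFP+ cells and NG2-dsRed+ cells, with a highest value of 1000 CPM in PSC library 18. Melanocyte markers had a summed median of 103 CPM in PSCs and at most 21.6 CPM elsewhere. In PSCs the sum came mostly from Dct and Tyrp1 (means 61.0 and 19.0 CPM). The other markers of the list did not follow it. Mlana and Tyr had means of 0.0106 and 0.0116 CPM in PSCs, each with 8 of 9 libraries at 0. Both were higher in S100β-GFP+ cells (0.873 and 0.336 CPM), and the levels of Pmel overlapped between the groups. Cartilage and tendon markers had medians of 8.67, 65.5 and 23.6 CPM, and PSC library 31 stood apart with 4154 CPM.

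**Figure D1:**
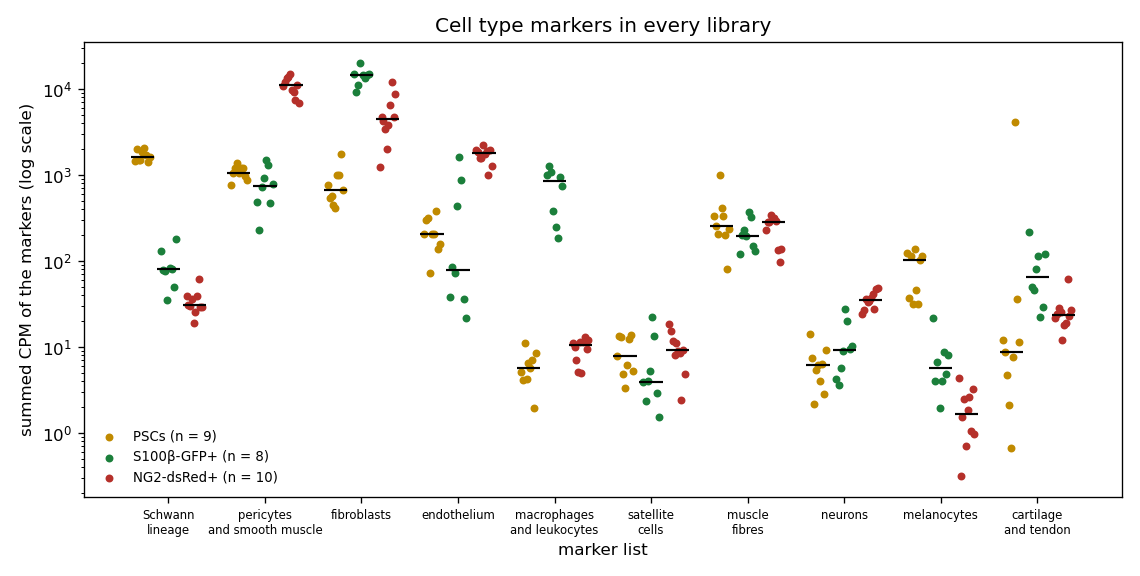
Summed CPM of 10 marker lists on a log axis, with a point for each library and a black line at the median of each group (9 PSC, 8 S100β-GFP+ and 10 NG2-dsRed+ libraries). Schwann lineage markers are highest in PSCs, at 1396 to 2034 CPM, and fibroblast markers in S100β-GFP+ cells have a median of 14410 CPM.

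PSCs carried a different set of LGI and ADAM22-type transcripts from either other group. Lgi4 was the main ligand transcript of PSCs, with Adam23 and Adam11 as the receptor transcripts, with log2 fold changes between 4.18 and 6.57 against the other groups. Lgi2, Lgi3 and Adam22 lay the other way, low in PSCs and higher in S100β-GFP+ cells. All 7 genes were kept by the filter on low counts, and edgeR tested them among 15330 genes, at a Benjamini-Hochberg adjusted p under 0.05. Against S100β-GFP+ cells, 3 of the 7 were higher in PSCs, where 22.9% of all genes tested were, 3 were lower, where 24.1% were, and 1 (Lgi1) did not pass. Against NG2-dsRed+ cells, 4 were higher in PSCs, beside 20.9% of all genes, 2 were lower, beside 23.1%, and 1 (Lgi3) did not pass. Between S100β-GFP+ and NG2-dsRed+ cells, 5 were higher in S100β-GFP+ cells, beside 18.1% of all genes, none was lower, beside 15.2%, and 2 (Adam11 and Adam22) did not pass. The study itself lists Lgi4, Adam11 and Adam23 as enriched in PSCs, a list chosen on these libraries, so their direction is not independent of it. The comparisons share libraries, and in sorted bulk samples fewer cells of a type and less RNA per cell cannot be told apart.

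Lgi4 (ENSMUSG00000036560, GRCm38 chromosome 7, 31059342 to 31070935, plus strand) is the LGI ligand that Schwann cells secrete. Its counts ran from 1142 to 6006 in PSC libraries, and its level from 163 to 630 CPM with a median of 291 CPM and a mean of 329 ± 171 CPM (SD, n = 9). S100β-GFP+ libraries had 57 to 153 counts and 10.6 to 21.3 CPM (median 13.2, mean 14.8 ± 4.22 CPM, SD, n = 8). In NG2-dsRed+ cells 12 to 94 counts gave 2.10 to 14.3 CPM (median 8.32, mean 8.11 ± 4.04 CPM, SD, n = 10). Every PSC library lay above every other library, PSC library 18 being the highest and PSC library 31 the lowest of its group. Against S100β-GFP+ cells PSCs had a log2 fold change of 4.47 (SE 0.35, edgeR adjusted p = 1.52e-11), and of 5.34 against NG2-dsRed+ cells (SE 0.34, adjusted p = 1.51e-13). S100β-GFP+ and NG2-dsRed+ cells overlapped, with 3 of 8 S100β-GFP+ libraries above all NG2-dsRed+ libraries, and differed by a log2 fold change of 0.86 (SE 0.30, edgeR adjusted p = 0.0279). This last call rested on single libraries, as the adjusted p was 0.0543 without S100β-GFP+ library 11, 0.0646 without S100β-GFP+ library 27 and 0.0513 without NG2-dsRed+ library 30. The last part of Lgi4 lies over Fxyd3, a gene on the opposite strand that shares 2059 exon bases with it and had mean levels of 46.8, 9.25 and 1.72 CPM in PSCs, S100β-GFP+ cells and NG2-dsRed+ cells. Whether counting used strand is not stated, so how reads in the shared stretch were counted for either gene is not known. The levels of Lgi4 per kb of merged exons below use all 4584 bases, the shared ones included.

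Lgi2 (ENSMUSG00000039252, chromosome 5, 52533517 to 52566462, minus strand) encodes an LGI ligand best known from brain, where its loss causes juvenile epilepsy in dogs. PSC libraries had 1 to 35 counts, or 0.105 to 4.54 CPM (median 1.10). S100β-GFP+ libraries had 227 to 571 counts, or 35.5 to 101 CPM (median 55.7), and NG2-dsRed+ libraries 32 to 183 counts, or 4.94 to 27.8 CPM (median 13.1). The 3 groups did not overlap, with PSCs at the bottom and S100β-GFP+ cells at the top. Mean levels were 1.55 ± 1.51 CPM in PSCs (SD, n = 9), 61.4 ± 23.0 CPM in S100β-GFP+ cells (SD, n = 8) and 13.8 ± 7.22 CPM in NG2-dsRed+ cells (SD, n = 10). The log2 fold change of PSCs was -5.26 against S100β-GFP+ cells (SE 0.48, edgeR adjusted p = 2.73e-10) and -3.12 against NG2-dsRed+ cells (SE 0.44, adjusted p = 1.14e-06), and that of S100β-GFP+ against NG2-dsRed+ cells was 2.15 (SE 0.40, adjusted p = 8.39e-05). The library highest in Lgi2 was also the highest of its group in the fibroblast sum, namely PSC library 34 (1737 CPM of fibroblast markers), S100β-GFP+ library 14 (19928 CPM) and NG2-dsRed+ library 28 (11958 CPM), and S100β-GFP+ library 3 was the lowest of its group in both, with 9185 CPM of the markers. Some other libraries kept this order, such as NG2-dsRed+ library 15, next to lowest in both (7.36 CPM of Lgi2 and a sum of 1981 CPM). Others did not. PSC library 20 had the lowest fibroblast sum of its group (417 CPM) but the next to highest Lgi2 level (2.77 CPM), and NG2-dsRed+ library 2, lowest in the sum with 1236 CPM, had 11.9 CPM of Lgi2, while library 21, lowest in Lgi2, had a sum of 3820 CPM. The part of these cells in the difference was not tested.

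Lgi3 (ENSMUSG00000033595, chromosome 14, 70530685 to 70538324, plus strand), a ligand found in brain and in skin and fat, was close to absent from PSCs. There were 0 to 10 counts per PSC library, with 3 of 9 libraries at 0, and a median of 0.286 CPM (highest 1.05). In S100β-GFP+ cells 35 to 118 counts gave 8.28 to 20.8 CPM (median 11.9), with the highest level again in library 14, and in NG2-dsRed+ cells 1 to 14 counts gave 0.141 to 2.49 CPM (median 0.705). All 8 S100β-GFP+ libraries lay above every other library, and PSCs and NG2-dsRed+ cells overlapped. The log2 fold change of PSCs against S100β-GFP+ cells was -5.05 (SE 0.57, edgeR adjusted p = 1.67e-08) and by limma-voom -5.94 (SE 0.65, adjusted p = 6.93e-09), and that of S100β-GFP+ against NG2-dsRed+ cells was 3.86 (SE 0.51, adjusted p = 5.81e-07). Between PSCs and NG2-dsRed+ cells it was -1.19 (SE 0.55, adjusted p = 0.0793), which passed the threshold without PSC library 23 (adjusted p = 0.0449) or PSC library 36 (adjusted p = 0.035).

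Lgi1 (ENSMUSG00000067242, chromosome 19, 38264536 to 38312214, plus strand), the ligand whose human mutations cause lateral temporal epilepsy, was low in all groups. It had 4 to 142 counts in PSCs (0.701 to 18.4 CPM, median 5.15), 37 to 159 counts in S100β-GFP+ cells (6.97 to 24.6 CPM, median 9.30) and 3 to 33 counts in NG2-dsRed+ cells (0.472 to 5.34 CPM, median 1.67). PSCs overlapped both other groups, from library 18 at the bottom to library 34 at the top, while every S100β-GFP+ library lay above every NG2-dsRed+ library. The log2 fold change of PSCs was 1.52 against NG2-dsRed+ cells (SE 0.46, edgeR adjusted p = 0.00837) and -0.99 against S100β-GFP+ cells (SE 0.47, adjusted p = 0.0832). The latter depended on the setting. It was -1.69 (adjusted p = 0.00147) with the share of Lars2, Gm23935 and Gm15564 in the fit, -1.15 (adjusted p = 0.0082) by limma-voom and -1.32 (adjusted p = 0.0199) without PSC library 34. S100β-GFP+ cells exceeded NG2-dsRed+ cells by a log2 fold change of 2.51 (SE 0.48, adjusted p = 0.000119). An antisense gene, Gm42723, shares 532 exon bases with Lgi1 and had 6, 2 and 2 counts in all PSC, S100β-GFP+ and NG2-dsRed+ libraries.

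Among the receptors, Adam23 (ENSMUSG00000025964, chromosome 1, 63445891 to 63596276, plus strand), which binds LGI1 and integrins on neurons, had the highest counts in PSCs, while Adam22 had higher median counts in the other groups. PSC libraries held 1271 to 6089 counts, or 223 to 614 CPM (median 353, mean 400 ± 126 CPM, SD, n = 9). S100β-GFP+ libraries held 55 to 213 counts, or 8.87 to 30.9 CPM (median 12.8, mean 16.9 ± 8.65 CPM, SD, n = 8), and NG2-dsRed+ libraries 9 to 61 counts, or 1.58 to 9.60 CPM (median 3.99, mean 4.17 ± 2.26 CPM, SD, n = 10). No PSC library came near the other groups, and 7 of 8 S100β-GFP+ libraries were above all NG2-dsRed+ libraries. The log2 fold change of PSCs was 4.57 against S100β-GFP+ cells (SE 0.33, edgeR adjusted p = 2.80e-12) and 6.57 against NG2-dsRed+ cells (SE 0.33, adjusted p = 1.81e-15). S100β-GFP+ cells were above NG2-dsRed+ cells by 2.01 on the log2 scale (SE 0.29, adjusted p = 2.45e-06).

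Adam11 (ENSMUSG00000020926, chromosome 11, 102761439 to 102780262, plus strand), a receptor best known at cerebellar synapses, had 192 to 1139 counts in PSC libraries and 20.2 to 142 CPM (median 60.6, mean 73.7 ± 40.7 CPM, SD, n = 9). S100β-GFP+ libraries had 4 to 31 counts and 0.500 to 6.86 CPM (median 3.06), and NG2-dsRed+ libraries 17 to 43 counts and 2.34 to 6.45 CPM (median 3.92). The PSC libraries varied, with library 36 lowest and library 18 highest, but all lay above the others, and the other groups overlapped. Against S100β-GFP+ cells PSCs had a log2 fold change of 4.49 (SE 0.44, edgeR adjusted p = 1.17e-09), and of 4.18 against NG2-dsRed+ cells (SE 0.39, adjusted p = 6.03e-10). With the share of Lars2, Gm23935 and Gm15564 in the fit the former was 5.15 (SE 0.36, adjusted p = 1.59e-12). S100β-GFP+ and NG2-dsRed+ cells did not pass the test (log2 fold change -0.31, SE 0.41, adjusted p = 0.611, and -0.92, SE 0.54, adjusted p = 0.17 by limma-voom).

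Adam22 (ENSMUSG00000040537, chromosome 5, 8072352 to 8368160, minus strand), the axonal receptor of LGI4 and the synaptic receptor of LGI1, ran opposite to the other receptors. PSC libraries had 10 to 92 counts, or 1.75 to 9.24 CPM (median 6.78, mean 6.04 ± 2.38 CPM, SD, n = 9), below every S100β-GFP+ library (68 to 181 counts, 14.2 to 29.8 CPM, median 21.8) and every NG2-dsRed+ library (111 to 250 counts, 17.3 to 34.5 CPM, median 25.4). Its log2 fold change in PSCs was -1.86 against S100β-GFP+ cells (SE 0.23, edgeR adjusted p = 1.11e-07) and -2.03 against NG2-dsRed+ cells (SE 0.23, adjusted p = 1.61e-08). S100β-GFP+ and NG2-dsRed+ cells overlapped and did not pass the test (log2 fold change -0.17, SE 0.22, adjusted p = 0.597). The noncoding genes and pseudogenes that lie inside Adam22, Adam23 and Lgi2 in the annotation share no exon base with them, and each that is in the table had 18 counts or fewer in any group.

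**Figure D2:**
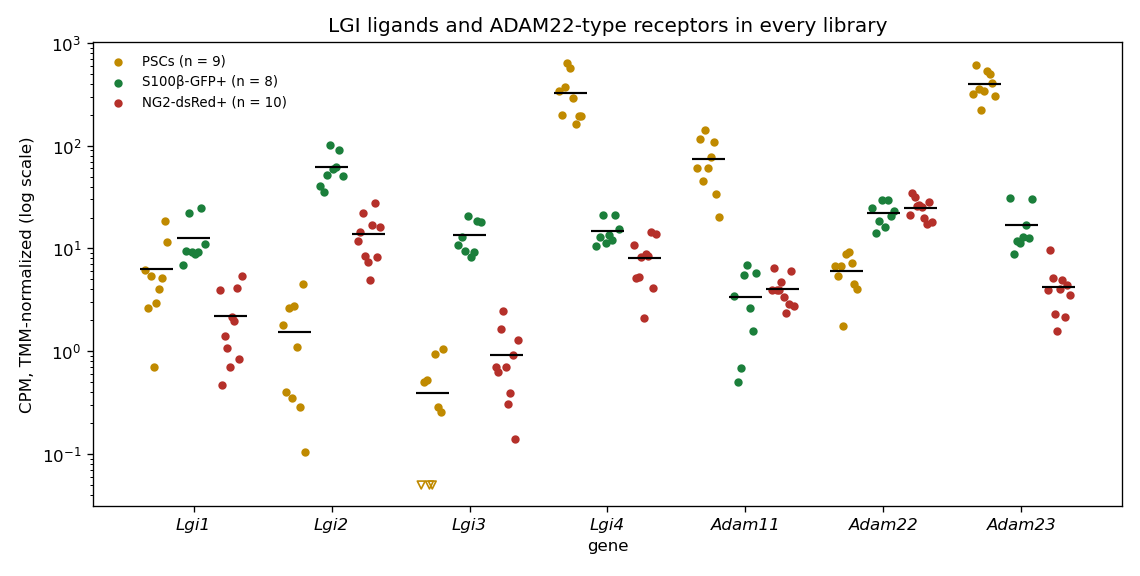
TMM-normalized CPM of the 7 genes on a log axis, with a filled point for each library, an open triangle at the bottom for a library with 0 counts (3 PSC libraries for Lgi3) and a black line at the group mean (9 PSC, 8 S100β-GFP+ and 10 NG2-dsRed+ libraries). Lgi4, Adam11 and Adam23 are highest in PSCs, while Lgi2, Lgi3 and Adam22 are lowest there, PSCs and NG2-dsRed+ cells overlapping for Lgi3.

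Levels of different genes were compared as CPM per kb of the merged exons of each gene. In PSCs the order was Lgi4 (mean 71.7 ± 37.4 CPM per kb, SD, n = 9), Adam23 (22.3 ± 7.02), Adam11 (13.0 ± 7.18), Lgi1 (0.559 ± 0.480), Adam22 (0.421 ± 0.166), Lgi2 (0.238 ± 0.231) and Lgi3 (0.102 ± 0.102). Lgi4 was above Adam23 in 9 of 9 PSC libraries, Adam23 above Adam11 in 8 of 9, and Adam11 above Lgi1 in 9 of 9, whereas the 4 genes below were under 1 CPM per kb on average and overlapped with their neighbours. With the longest transcript or the coding length, Adam23 was above Adam11 in 9 of 9. The first step depends on the length too, because the merged exons of Adam23 (17907 bases) are longer than its longest transcript (6426 bases). Per kb of the longest transcript, Lgi4 had 81.4 ± 42.5 and Adam23 62.2 ± 19.6 CPM per kb, and Lgi4 was above Adam23 in 5 of 9 libraries, so that these did not differ beyond their spread.

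In S100β-GFP+ cells Lgi2 led with 9.40 ± 3.53 CPM per kb (SD, n = 8), above Lgi3 (3.47 ± 1.26) in 8 of 8 libraries. Lgi3 and Lgi4 (3.22 ± 0.922) did not differ beyond their spread, and Lgi4 was above Adam22 (1.53 ± 0.404) in 8 of 8 libraries. After Adam22 came Lgi1 (1.11 ± 0.590), Adam23 (0.943 ± 0.483) and Adam11 (0.595 ± 0.430), and from Adam22 on each gene overlapped the next. With the coding length, Lgi4 (9.17 ± 2.62 CPM per kb) and Adam22 (7.92 ± 2.09) did not differ beyond their spread. NG2-dsRed+ cells had Lgi2 (2.12 ± 1.11 CPM per kb, SD, n = 10), Lgi4 (1.77 ± 0.881) and Adam22 (1.73 ± 0.403) close together at the top, then Adam11 (0.714 ± 0.241), which was under Adam22 in 10 of 10 libraries. Lgi3 (0.237 ± 0.183), Adam23 (0.233 ± 0.126) and Lgi1 (0.194 ± 0.149) were the lowest and overlapped. This order depends on the length. In NG2-dsRed+ cells Adam22 came first with the longest transcript (2.69 ± 0.626 CPM per kb) and with the coding length (8.93 ± 2.08). With the coding length Lgi2 (8.38 ± 4.38) was above Lgi4 (5.04 ± 2.51) in 8 of 10 libraries. Per kb of the longest transcript Adam23 had 0.649 ± 0.352 CPM per kb in NG2-dsRed+ cells. It was above Lgi3 (0.291 ± 0.225) in 9 of 10 libraries and under Adam11 (0.793 ± 0.268) in 6 of 10.

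The summed LGI level was 72.6 ± 37.1 CPM per kb in PSCs, 17.2 ± 4.98 among S100β-GFP+ and 4.32 ± 1.87 among NG2-dsRed+ libraries. Lgi4 made up 94.7% to 99.9% of it in PSC libraries (median 98.8%), 10.2% to 27.1% in S100β-GFP+ libraries (median 19.6%) and 22.7% to 65.2% in NG2-dsRed+ libraries (median 39.4%). Lgi2 was the largest part in 8 of 8 S100β-GFP+ libraries (43.8% to 64.2%, median 53.4%) and in 6 of 10 NG2-dsRed+ libraries (25.7% to 66.7%, median 54.2%), and Lgi3 reached a median of 20.4% in S100β-GFP+ cells. Lgi1 stayed at or under 11.4% in every library with this length. The smaller parts moved with the length. With the coding length the mean shares in S100β-GFP+ cells were 59.1% for Lgi2, 15.3% for Lgi4, 13.5% for Lgi3 and 12.1% for Lgi1, which had 6.43% with merged exons. In NG2-dsRed+ cells they were 54.8% for Lgi2, 33.1% for Lgi4, 8.14% for Lgi1 and 3.96% for Lgi3, and in PSCs Lgi4 had 96.8%. With each length PSCs held nearly a single LGI transcript, and in the other groups Lgi2 had the highest mean share and Lgi4, Lgi3 and Lgi1 made up the rest. In NG2-dsRed+ cells Lgi2 and Lgi4 did not differ beyond their spread with 2 of the lengths. Their mean shares were 45.7 ± 13.6% and 42.2 ± 12.2% (SD) with the longest transcript, and 49.2 ± 13.8% and 40.8 ± 12.6% with merged exons.

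The summed receptor level was 35.7 ± 11.0 CPM per kb in PSCs, 3.07 ± 0.978 among S100β-GFP+ and 2.68 ± 0.696 among NG2-dsRed+ libraries. Adam23 was the largest part in 8 of 9 PSC libraries (33.0% to 81.6%, median 62.8%), Adam11 took most of the rest (17.1% to 66.7%, median 35.2%), and Adam22 was at most 2.03%. In PSC library 18 Adam11 exceeded Adam23, an order that turned with the other lengths (44.5% against 55.2% with the longest transcript and 40.4% against 59.2% with the coding length). Adam22 was the largest part in 10 of 10 NG2-dsRed+ libraries (58.9% to 69.2%, median 66.2%) and in 5 of 8 S100β-GFP+ libraries (36.7% to 63.0%, median 57.9%). Per kb of the longest transcript the mean share of Adam23 moved from 64.0% to 80.5% in PSCs, from 30.2% to 45.1% in S100β-GFP+ cells and from 8.58% to 15.4% in NG2-dsRed+ cells. In S100β-GFP+ cells Adam23 then passed Adam22 (43.9%), with 2.63 ± 1.35 against 2.38 ± 0.628 CPM per kb and 3 of 8 libraries higher in Adam23, so that which receptor transcript leads there depends on the length. With that length too, the share of Adam23 was highest and that of Adam22 lowest in PSCs among the groups.

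**Figure D3:**
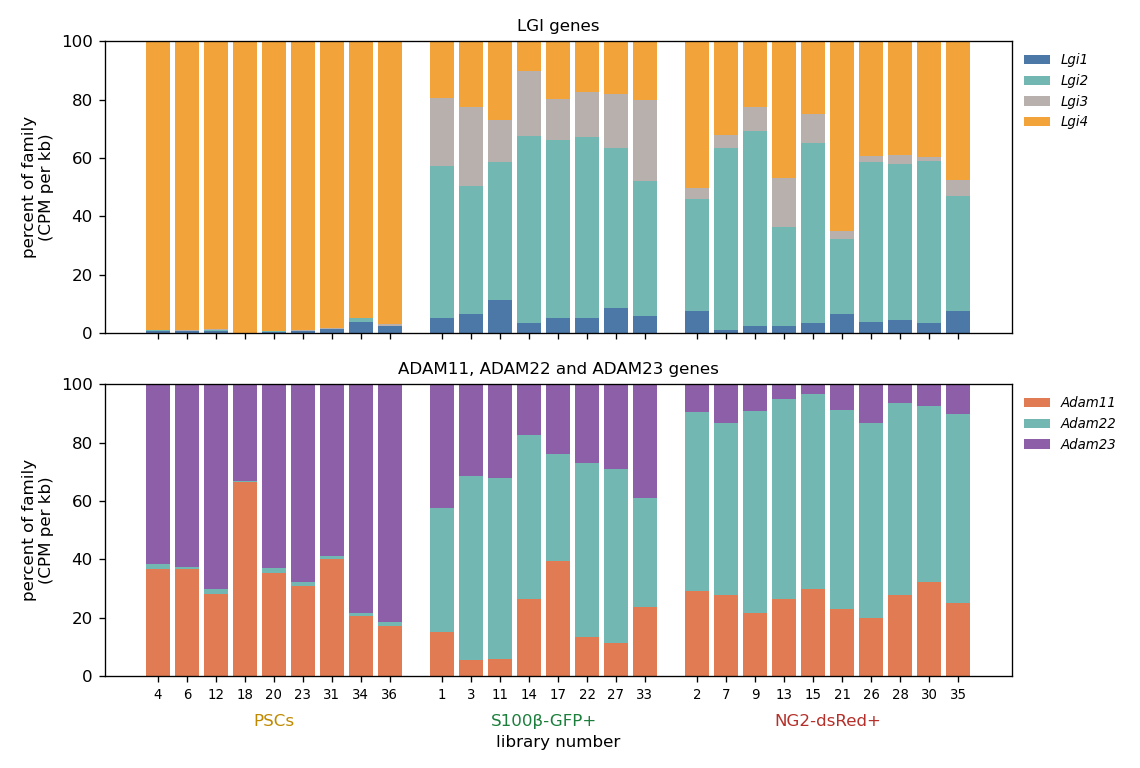
Share of each gene in the summed CPM per kb of the LGI genes (top) and of the 3 receptor genes (bottom), in percent, with a stacked bar for each library. Lgi4 fills 94.7% or more of the LGI bar in each PSC library, and Adam22 takes the largest share of the receptor bar in all 10 NG2-dsRed+ libraries.

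LGI and ADAM22 proteins act with Kv1 channels, their beta subunits, CASPR2, contactin-2 and PSD-95 type scaffolds. A list of 16 partner genes holds 13 of these kinds together with Epb41l3 (a membrane skeleton protein), Rtn4r and Cacng2, and 9 passed the filter. In PSCs 4 were higher and 2 lower than in S100β-GFP+ cells, and 3 did not pass (median log2 fold change 0.28, against 0.04 over all genes tested, of which 22.9% were higher and 24.1% lower). Set beside NG2-dsRed+ cells, 3 rose, 3 fell and 3 did not pass (median 0.24, against 0.02 with 20.9% higher and 23.1% lower over all genes), and between S100β-GFP+ and NG2-dsRed+ cells 4 were higher, 3 lower and 2 did not pass (median 0.80, against -0.02 with 18.1% higher and 15.2% lower). The 4 most abundant were 3 Kv1 channel subunits and 1 scaffold. Of the other 5 tested, 1 was higher, 2 were lower and 2 did not pass in PSCs against S100β-GFP+ cells, and none was higher, 2 were lower and 3 did not pass against NG2-dsRed+ cells. Epb41l3 was among those lower in both (log2 fold changes -1.83 and -0.91, adjusted p = 3.15e-05 and 0.0176). Kcna2, a Kv1 channel subunit, had 567 CPM on average in PSCs, 36.6 among S100β-GFP+ and 9.73 among NG2-dsRed+ libraries (log2 fold changes of PSCs 3.95 and 5.86, edgeR adjusted p = 2.80e-12 and 1.16e-15). Kcna1 had 379, 49.6 and 7.74 CPM in the same order (2.93 and 5.61, adjusted p = 4.12e-07 and 4.17e-12), and Kcna6 had 115, 3.72 and 2.07 CPM (4.97 and 5.78, adjusted p = 1.45e-11 and 2.44e-13). Dlg1, a scaffold of the PSD-95 family, had 38.3, 31.7 and 56.4 CPM, with log2 fold changes of 0.28 (adjusted p = 0.262) and -0.56 (adjusted p = 0.0158). Kcna1, Kcna2 and Kcna6 are in the list of PSC-enriched genes that the study chose on these libraries.

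Other ADAM genes, most of them working proteases, did not share 1 direction. Of 10 listed, 8 passed the filter. PSCs had 2 higher and 5 lower than S100β-GFP+ cells (median log2 fold change -1.18, beside 22.9% higher, 24.1% lower and a median of 0.04 over all genes tested) and 2 higher and 4 lower than NG2-dsRed+ cells (median -0.77, beside 20.9%, 23.1% and 0.02), and S100β-GFP+ cells had 4 higher and none lower than NG2-dsRed+ cells (median 0.45, beside 18.1%, 15.2% and -0.02). Adam17, the sheddase of TNF and neuregulin, had mean levels of 194 CPM in PSCs, 77.3 among S100β-GFP+ and 50.8 among NG2-dsRed+ libraries (log2 fold changes of PSCs 1.33 and 1.93, adjusted p = 2.53e-07 and 8.52e-11). Adam12 had 175, 14.0 and 7.96 CPM (3.64 and 4.45, adjusted p = 1.90e-11 and 1.21e-13) and is also in the study's own list. Adam10, the sheddase of Notch, had 58.5, 86.2 and 85.6 CPM (-0.56 and -0.55, adjusted p = 9.82e-04 and 7.44e-04), and Adam15 had 25.6, 102 and 97.1 CPM (-2.00 and -1.93, adjusted p = 4.42e-07 and 5.59e-07).

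Lgi4 works in the programme of radial sorting and myelination, of which 16 genes are counted here and 15 passed the filter. In PSCs 9 were higher and 1 lower than in S100β-GFP+ cells, and 5 did not pass (median log2 fold change 0.70), while over all genes tested 22.9% were higher and 24.1% lower, with a median of 0.04. Set beside NG2-dsRed+ cells, 11 rose, 2 fell and 2 did not pass (median 2.52, beside 20.9% higher, 23.1% lower and a median of 0.02 over all genes), and S100β-GFP+ cells had 9 higher and 2 lower than NG2-dsRed+ cells (median 2.09, beside 18.1%, 15.2% and -0.02). Dag1, which encodes the laminin receptor dystroglycan, had mean levels of 2966 CPM in PSCs, 280 among S100β-GFP+ and 364 among NG2-dsRed+ libraries (log2 fold changes of PSCs 3.40 and 3.03, adjusted p = 5.30e-15 and 2.68e-15). Pmp22 had 1441, 887 and 202 CPM (0.70 and 2.83, adjusted p = 0.00226 and 2.05e-13), and Itgb1, a laminin-binding integrin subunit, had 637, 433 and 1065 CPM (0.56 and -0.74, adjusted p = 8.59e-04 and 1.46e-05). The 5 that did not pass between PSCs and S100β-GFP+ cells were Lamc1 and the myelin genes or regulators Mbp, Egr2, Prx and Mag, with 413, 54.1, 60.5 and 19.6 CPM in PSCs and 399, 69.8, 79.0 and 28.5 CPM in S100β-GFP+ cells for the last 4. These 4 were higher in S100β-GFP+ than in NG2-dsRed+ cells (adjusted p = 1.37e-06, 0.00532, 8.79e-07 and 7.50e-09). Some genes of this list, Erbb3 among them, were also chosen by the study as PSC-enriched.

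Likeness across libraries was measured by Pearson's r of log2 CPM over the 27 libraries, which fall into the 3 sorted groups, and is given as a description. Lgi4 and Adam23 were the most alike pair of the 7 genes (r = 0.93), followed by Adam11 and Adam23 (0.86) and Lgi4 and Adam11 (0.84). Adam22 ran against Lgi4 (-0.90), and Lgi2 went with Lgi3 and with Adam22 (0.77 for each). Among protein-coding genes the nearest to Lgi4 were Aspa, Car12 and Acsbg1 (0.97 each), to Adam23 Gpm6b, Fzd1 and Foxd3 (0.98 each), and to Adam11 Bmp6, Dag1 and Prnp (0.96, 0.95 and 0.95). All of these had their highest mean level in PSCs, such as 992 CPM for Gpm6b beside 70.5 and 19.2 CPM for the S100β-GFP+ and NG2-dsRed+ groups. Lgi2 was nearest to Scara3, Itgbl1 and Cd248 (0.96, 0.96 and 0.95), and Lgi3 to Emilin2, Mrc1 and 1700019D03Rik (0.94, 0.93 and 0.93). These were highest in S100β-GFP+ cells, with 479 CPM of Cd248 and 153 CPM of Mrc1 against 5.58 and 0.479 CPM in PSCs. Nearest to Adam22 were Shc1, Ebf3 and Fat4 (0.95, 0.95 and 0.94), all lowest in PSCs, and nearest to Lgi1 were Tmem167, Fmn1 and Jpt1 (0.84, 0.83 and 0.83).

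Promoters were looked up in RefSeq (GRCm38.p6), 250 bases before to 50 bases after the start of a gene, and 4 of the 7 genes matched, without Lgi3, Lgi4 and Adam11. The promoters of Adam23 and Adam22 are shown because these receptors went in opposite directions between PSCs and the other cells, and that of Lgi2 as the ligand lowest in PSCs among those matched. Capitals mark matches on either strand to GGGCGG (the GC box) or CANNTG (the E-box), which do not overlap each other here, and all are written 5′ to 3′ on the strand of the gene. Adam23 lies at chr1:63445641-63445940 (plus strand), Adam22 at chr5:8368111-8368410 (minus strand) and Lgi2 at chr5:52566257-52566556 (minus strand).
Adam23: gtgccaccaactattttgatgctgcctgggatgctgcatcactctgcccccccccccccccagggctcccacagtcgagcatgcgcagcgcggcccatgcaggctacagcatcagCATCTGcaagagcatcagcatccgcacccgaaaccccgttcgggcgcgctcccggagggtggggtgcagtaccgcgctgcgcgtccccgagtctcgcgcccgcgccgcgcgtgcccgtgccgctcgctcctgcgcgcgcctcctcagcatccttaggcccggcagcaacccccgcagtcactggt
Adam22: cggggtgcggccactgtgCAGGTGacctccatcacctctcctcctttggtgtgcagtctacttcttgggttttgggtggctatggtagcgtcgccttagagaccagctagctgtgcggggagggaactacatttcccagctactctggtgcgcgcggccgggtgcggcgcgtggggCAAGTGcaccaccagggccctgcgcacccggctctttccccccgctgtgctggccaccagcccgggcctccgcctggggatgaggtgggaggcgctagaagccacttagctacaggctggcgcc
Lgi2: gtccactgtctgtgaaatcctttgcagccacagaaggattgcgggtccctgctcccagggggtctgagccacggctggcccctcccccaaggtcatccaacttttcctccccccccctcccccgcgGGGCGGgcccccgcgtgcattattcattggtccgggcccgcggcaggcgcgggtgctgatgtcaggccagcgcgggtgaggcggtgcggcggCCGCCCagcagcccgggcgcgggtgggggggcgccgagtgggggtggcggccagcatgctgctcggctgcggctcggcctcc
The E-box was matched at 1 place in Adam23 (bases 116 to 121) and 2 places in Adam22 (19 to 24 and 177 to 182), and the GC box at 2 places in Lgi2 (127 to 132 and 219 to 224). Neither ACAAAG nor ACAATG, core forms of the SOX motif, was found in these windows. Among 32544 promoters of the same length, 72.3% held CANNTG, 35.9% GGGCGG, 18.7% ACAAAG and 12.4% ACAATG. The dinucleotide CG occurred 31 times in the window of Adam23, 19 times in that of Adam22 and 27 times in that of Lgi2, against a median of 7.00 over all promoters. In the same order, 90.4%, 73.3% and 85.7% of all promoters had that many or fewer.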

How the data were processed

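RNA-seq counts of 27 libraries were analysed. Per gene, the authors counted reads with HTSeq after trimming by ea-utils and Btrim and alignment by HISAT2 (GRCm38 per the submitters' processing notes), and the deposited counts are whole numbers without normalization. No source used here gives the tool versions, the annotation or whether counting used strand. Library numbers tied columns to samples, and 9 of the 36 libraries in the labels were not analysed here. No 2 libraries of a group were identical (a chi-square test gave 8.10 or more per degree of freedom). Totals of 5221655 to 9592875 counts per library mean that levels near 1 CPM rest on few counts. The counts do not separate PCR copies from distinct molecules.

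Symbols, positions and exon lengths were taken from GENCODE M21 (GRCm38), where 99.72% of identifiers were found. In R 4.3.3, edgeR 4.0.16 used TMM, filterByExpr (minimum count 10, 15330 genes kept), 1 quasi-likelihood fit of the 3 groups, which thus share an estimate of the spread, and Benjamini-Hochberg adjustment over all genes kept at 0.05. The SE was obtained by dividing the log2 fold change by the root of F. Log2 CPM for correlations used a prior count of 2. The steps were tested on simulated counts with 200 changed genes. Alternatives were no filter, edgeR with DESeq2 size factors, the Wald test of DESeq2 1.42.0, only the 2 groups compared, limma-voom (limma 3.58.1) with sample quality weights, fits without S100β-GFP+ libraries 14, 17 and 22, without Lars2, Gm23935 and Gm15564 or with their share as a covariate, CPM without TMM factors, other gene lengths, and leaving out each library.

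The text names the 7 members, genes that overlap them, the 3 protein-coding genes most alike to each member, the listed genes with the highest mean CPM of each list, the markers, the 5 genes of the sorting and myelination list that did not pass between PSCs and S100β-GFP+ cells (outside the rule), and Lars2, Gm23935 and Gm15564. After the plan was fixed, 1 gene each was left out of the Schwann lineage marker list and of the sorting and myelination list, for a reason that does not rest on its values, with the sums and counts made anew without them, and neither is reported here. The members and lists were chosen with earlier results of these data known. Which list genes are in the study's own list of PSC-enriched genes was taken from the study.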

Additional observations from a re-analysis of the deposited data

Results flagged for a closer look

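In 5 of 78 groups of values, a library stood apart from its group by more than the 95% limit of Dixon's gap test, which chance exceeds in about 1 in 20 groups. No level of the 7 genes did so on the log2 scale in any of the 21 groups of values tested. Shares within the families did so in 3 cases. PSC library 34 had 1.55% of its LGI sum in Lgi2, with the next library at 0.483% and a median of 0.262%. PSC library 18 had 66.7% of its receptor sum in Adam11, with the next library at 40.3% and a median of 35.2%, and 33.0% in Adam23, with the next library at 58.7% and a median of 62.8%, so that both values describe the same library. These shares depend on the length. With the longest transcript library 18 had 44.5% in Adam11 (median 18.0%) and 55.2% in Adam23 (median 80.6%), and with the coding length 40.4% (median 15.6%) and 59.2% (median 82.8%), so that Adam23 led there too, and the library remained past the limit in each case. Library 18 also had a count on 14616 genes, against 20203 to 22533 in the other PSC libraries, and the lowest total of the PSC libraries. Among them it was highest in Lgi4 and Adam11 and lowest in Lgi1, Adam22 and Adam23 by CPM. The part of library quality in these values was not tested.

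The summed markers of cartilage and tendon gave the other cases. PSC library 31 had 4154 CPM, mostly from Col2a1, with the next library at 35.8 CPM and a median of 8.67 CPM, and NG2-dsRed+ library 28 had 62.1 CPM, with the next library at 28.7 CPM and a median of 23.6 CPM. Leaving out PSC library 31 or 18 did not change the side of the threshold or the direction of any fold change of the 7 genes.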

How the results depend on the processing

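Across 8 alternatives to the test, the normalization, the filter and the libraries, 165 of 167 log2 fold changes of the 7 genes kept their direction and their side of the threshold, and those of Lgi1 between PSCs and S100β-GFP+ cells with limma-voom and with the covariate, given above, passed it. With only PSCs and NG2-dsRed+ cells in the fit, Lgi3 was below the filter and had no value. By more than 1.5 times in fold, the size moved for Lgi3 and Adam11 by limma-voom and for Adam11 and Lgi1 with the covariate, 1 comparison each, all given above. Leaving out each library in turn moved 6 of 567 fold changes across the threshold, all given above, and reversed none. The numbers of the 7 genes called were 6 to 7, 6 to 7 and 4 to 5 over these fits for PSCs against S100β-GFP+ cells, PSCs against NG2-dsRed+ cells and S100β-GFP+ against NG2-dsRed+ cells, and the numbers of all genes called were 6825 to 7918, 6315 to 7412 and 4617 to 5940. S100β-GFP+ libraries 14, 17 and 22 had a count on 25890, 29103 and 38568 genes, against 19669 to 23292 in the others of their group. Their endothelial sums were 433, 1620 and 874 CPM, against 21.8 to 85.5 CPM. Their leukocyte sums were 384, 245 and 186 CPM, against 751 to 1277 CPM. Without these libraries, 6878 genes were called between PSCs and S100β-GFP+ cells. Without the filter on low counts, 44705 genes were tested and 16556 were called between PSCs and S100β-GFP+ cells (3907 higher and 12649 lower in PSCs), against 7198 with it, and 10586 between S100β-GFP+ and NG2-dsRed+ cells (8194 higher and 2392 lower in S100β-GFP+ cells), against 5099. The cause was not tested.

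CPM without TMM factors moved none of the 21 mean levels by more than 1 SD, while the length moved 5 of 21 mean shares with the longest transcript and 10 of 21 with the coding length. Coding length put Adam23 at 82.5% of the receptor sum in PSCs. Median counts were lowest for Lgi3 and Lgi2 in PSCs (2.00 and 7.00) and for Lgi3 and Lgi1 in NG2-dsRed+ cells (4.50 and 12.5), and 20.0 or more elsewhere, so these levels rest on few counts. No paired analysis was made because the labels used here do not name the mouse of a library, and whether gates share mice is not known. The S100β-GFP+ libraries carry Schwann lineage and myelin genes beside fibroblast and leukocyte markers, so the comparisons with them are between sorted gates, and which cells of a gate carry a transcript cannot be told from bulk counts.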
